A study of Penicillium oxalicum with 6 samples.

Results

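The transcripts of 2 genes of the filamentous fungus Penicillium oxalicum were followed across 3 strains grown in glucose: PDE_00021, whose best protein match is the conidial hydrophobin Hyp1/RodA, and PDE_09832, which a Gene Ontology term places among structural wall proteins. They are 2 of the 8902 gene identifiers in the deposited table. PDE_00021 was picked by its description, as the 1 identifier whose annotation names a hydrophobin. PDE_09832 was picked because it was the most abundant transcript of Rmtr23B and M12, so its abundance and its differences between these libraries are descriptions and carry no test. The gene next in abundance, which the same criterion left out, held 9747 TPM in Rmtr23B (PDE_09236) and 11255 TPM in M12 (PDE_07927).

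Fungal hydrophobins are small secreted proteins that assemble into a water-repellent layer at the surface of hyphae and spores. In Aspergillus, RodA forms the rodlet layer that covers the conidia, the asexual spores, and lies over a wall of glucans, chitin and galactomannan that also carries melanin. Structural wall proteins are secreted, and part of them are held in the wall by a lipid anchor or by links to glucan. In Aspergillus nidulans, the transcription factor BrlA starts the development of the conidiophore, the stalk that bears conidia, and transcripts of spore wall and spore pigment proteins accumulate during it.

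The groups were the deletion strain Dmtr23B, in which mtr23B was knocked out, the complemented strain Rmtr23B, and M12, a uracil auxotroph (pyrGQ226*) made from wild type 114-2, which served as the parent in these comparisons. All were mycelia grown from conidia in Vogel's medium with 2% glucose (20 h, 30 °C), moved to fresh medium with 2% glucose and collected after 24 h. Each strain has 1 glucose library and no replicate culture is given, so no difference below has a replicate check and no p-value is given. Whether Dmtr23B and Rmtr23B also carry the pyrG mutation, how many clones were used and where the complementing copy lies are not given in the labels. No row of the table names mtr23B, so the targeted gene itself was not analysed here. Tags assigned to genes numbered 2013784 in Dmtr23B, 2147854 in Rmtr23B and 2048846 in M12, which is 60.1%, 63.9% and 61.0% of the library totals. Values are TPM, here a gene's tag count scaled to a common library total and not to gene length. Each transcript has 1 tag site, so a longer transcript gives no more tags, but how well a given transcript yields tags is not known. A ratio between genes in 1 library therefore describes tags, not molecules.

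PDE_09832 was the leading transcript in Rmtr23B and M12 and far lower in the deletion strain. It was counted 9369 times in Dmtr23B, which is 2796 TPM (exact 95% interval 2739 to 2853). It was counted 557858 times in Rmtr23B, 166043 TPM (165645 to 166441), and 277393 times in M12, 82567 TPM (82273 to 82862). The intervals are Clopper-Pearson intervals of the share of the library and cover counting error only, since PCR copies were not told apart by molecular identifiers. The 3 values did not overlap within counting error, and their order was Dmtr23B lowest, then M12, then Rmtr23B. The RNA is of whole mycelia, in which fewer cells of a type and less RNA per cell cannot be told apart.

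The share of assigned tags shows how far this single gene filled the libraries. PDE_09832 took 0.465% of the assigned tags in Dmtr23B, 26.0% in Rmtr23B and 13.5% in M12. It ranked 22 among 8237 genes with at least 1 tag in Dmtr23B, and 1 among 8174 in Rmtr23B and 1 among 8262 in M12. In tags scaled to TPM, it stood 17.0-fold above the gene next in abundance in Rmtr23B and 7.34-fold in M12, which is the abundance it was chosen for. In Dmtr23B no gene stood out in this way, the most abundant, PDE_09166, lying 1.11-fold above the next.

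**Figure D1:**
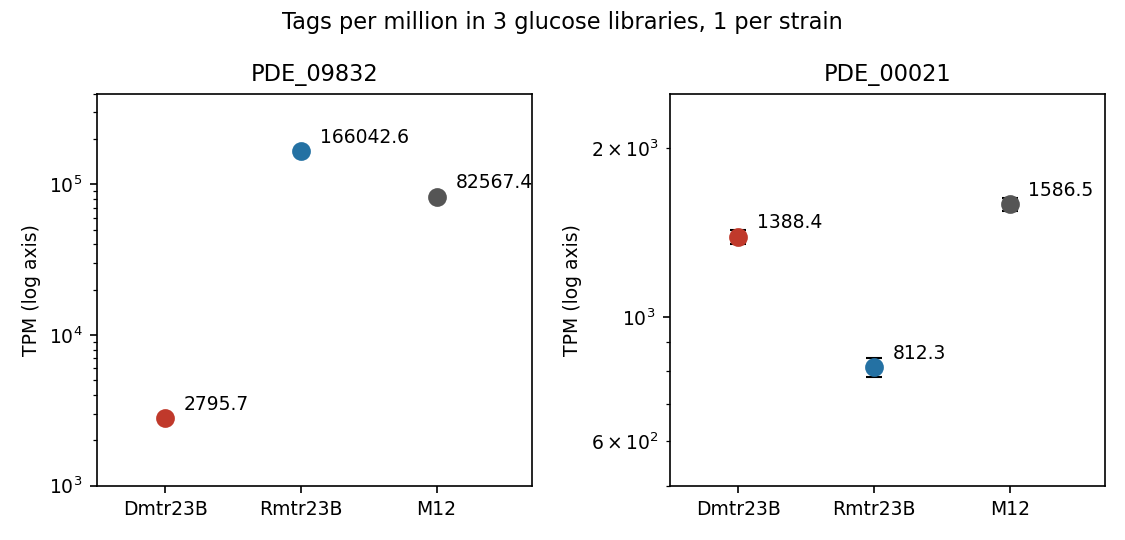
TPM (log axes, 1 panel per gene with its own range) of PDE_09832 and PDE_00021 in the glucose libraries of Dmtr23B, Rmtr23B and M12, 1 point per library. Error bars are exact 95% intervals of counting error and are narrower than the points for PDE_09832. PDE_09832 was lowest in Dmtr23B, and PDE_00021 was lowest in Rmtr23B.

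PDE_09832 was 59.4-fold lower in Dmtr23B than in Rmtr23B (exact binomial 95% interval 58.2 to 60.6) and 29.5-fold lower in Dmtr23B than in M12 (28.9 to 30.2). A gene was counted as apart when it differed at least 2-fold on the TPM + 1 scale with at least 10 TPM in either library. By that rule 11.1% of 5620 genes were lower in Dmtr23B than in Rmtr23B, and 10.2% of 5599 were lower than in M12. A larger decrease than that of PDE_09832 was seen in 29 and in 42 of these genes. Since its abundance chose the gene, nothing is read from its place among them.

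PDE_09832 also differed between the complemented strain and M12. Its level was 2.01-fold higher in Rmtr23B than in M12 (2.002 to 2.020), just past the 2-fold rule, by which 4.52% of 5226 genes were higher in Rmtr23B. The log2 ratio of 1.01 became 0.94 when counts were divided by the assigned tags in place of the library total, which ends this call. Under the 3 other scalings tried it lay between 1.15 and 1.17.

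The RodA-like hydrophobin PDE_00021 did not share this order. It was counted 4653 times in Dmtr23B, 1388 TPM (1349 to 1429), 2729 times in Rmtr23B, 812 TPM (782 to 843), and 5330 times in M12, 1586.5 TPM (1544 to 1630). Rmtr23B was thus the low library, and Dmtr23B lay closer to M12. It ranked 47, 80 and 30 in Dmtr23B, Rmtr23B and M12, within the most abundant 1% of detected genes in each of the 3 libraries.

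PDE_00021 was 1.71-fold higher in Dmtr23B than in Rmtr23B (1.63 to 1.79) and 1.14-fold lower in Dmtr23B than in M12 (1.10 to 1.19). Both differences lay beyond counting error and within 2-fold. By the 2-fold rule 25.9% of genes were higher in Dmtr23B than in Rmtr23B and 10.2% lower in Dmtr23B than in M12. Rmtr23B had 1.95-fold less PDE_00021 than M12 (1.86 to 2.05), just short of the 2-fold rule, by which 10.8% of genes were lower in Rmtr23B. Divided by the assigned tags, this log2 ratio of -0.97 became -1.03 and passed the rule. For the hydrophobin the complemented strain thus lay further from M12 than the deletion strain did. With Dmtr23B and Rmtr23B both within 2-fold of M12, PDE_00021 belonged to the 66.2% of 5756 genes of which this holds.

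The balance of both transcripts within a library does not depend on how libraries are scaled. For each tag of PDE_00021 there were 2.01 tags of PDE_09832 in Dmtr23B, 204 in Rmtr23B and 52.0 in M12. The ratio was 102-fold lower in Dmtr23B than in Rmtr23B (Woolf 95% interval 96.4 to 107) and 25.8-fold lower in Dmtr23B than in M12 (24.7 to 27.0). It was 3.93-fold higher in Rmtr23B than in M12 (3.75 to 4.11). These intervals again cover counting error only.

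**Figure D2:**
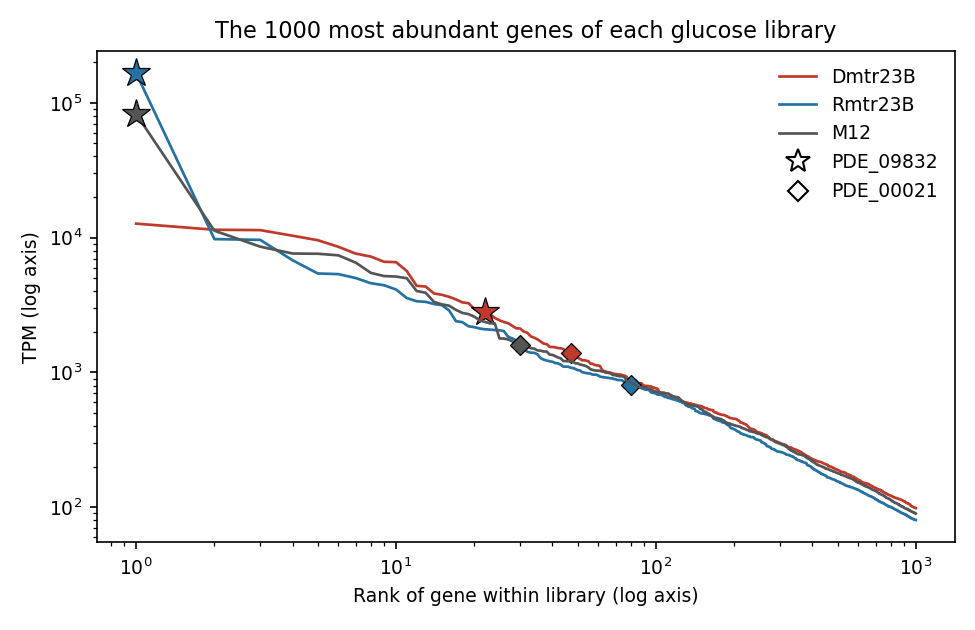
TPM (log axis) against rank (log axis) for the 1000 most abundant genes of each glucose library, 1 line per library, with stars at PDE_09832 and diamonds at PDE_00021. PDE_09832 stands above the rest of the curve in Rmtr23B and M12 and lies on the curve, at rank 22, in Dmtr23B.

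The weight of PDE_09832 bears on every TPM value of these libraries, that of PDE_00021 included. The 10 most abundant genes took 15.3% of the assigned tags in Dmtr23B, 34.6% in Rmtr23B and 24.2% in M12. Without PDE_09832, genes held 59.8% of the library total in Dmtr23B, 47.3% in Rmtr23B and 52.7% in M12. The median log2 difference of the genes under the 2-fold rule, those of 10 TPM or more in either library, was 0.47 for Dmtr23B over Rmtr23B, 0.32 for Dmtr23B over M12 and -0.14 for Rmtr23B over M12. With the tags of genes other than PDE_09832 as the total, these medians were 0.12, 0.13 and 0.03. They were 0.02, 0.03 and 0.03 with the size factors of DESeq2. Such factors are built to bring the medians near 0, so these last values show nothing about PDE_09832. The split of genes 2-fold apart between Dmtr23B and M12 was 817 higher and 572 lower by the library total, 551 higher and 675 lower without PDE_09832, and 459 higher and 744 lower with the size factors. Between Dmtr23B and Rmtr23B it was 1453 and 624, 858 and 884, and 732 and 975. Between Rmtr23B and M12 it was 236 and 566, 342 and 439, and 348 and 443.

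Set against the rest of the transcripts in this way, the hydrophobin kept its directions. Without PDE_09832 in the total, the log2 ratio of PDE_00021 was 0.44 for Dmtr23B over Rmtr23B, against 0.77 by the library total. It was -0.37 for Dmtr23B over M12, against -0.19, and -0.81 for Rmtr23B over M12, against -0.97. On the same total PDE_00021 stood at 2321 TPM in Dmtr23B, 1716 in Rmtr23B and 3009 in M12. Its order over the strains, M12 highest and Rmtr23B lowest, was the same under all 5 scalings, and so was that of PDE_09832.

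**Figure D3:**
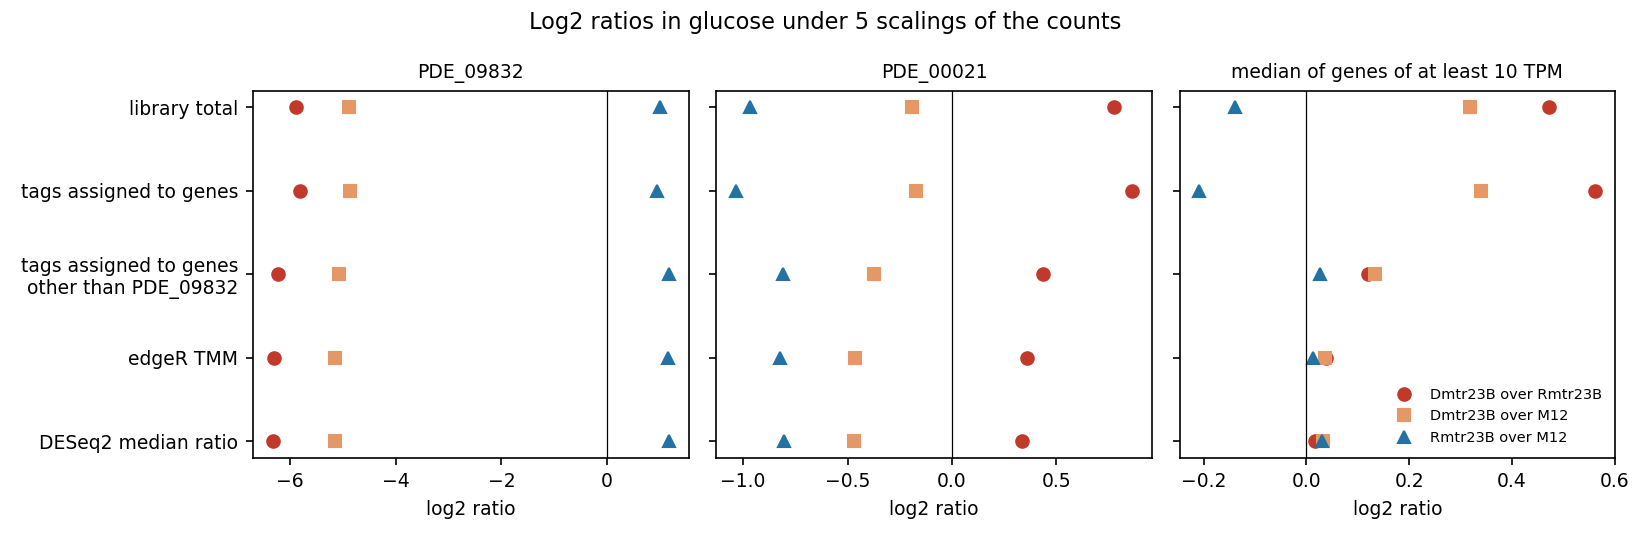
Log2 ratios of PDE_09832 and PDE_00021 and the median log2 ratio (TPM + 1) of genes of at least 10 TPM, under 5 scalings of the tag counts (rows) for the 3 pairs of libraries (symbols). The medians lie nearer 0 once PDE_09832 is left out of the total. TMM and DESeq2 factors are built to bring such medians near 0. Both genes keep the sign of each ratio.

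The top of each library beside PDE_09832 held partly other genes. Of the 10 most abundant genes, Dmtr23B shared 3 with Rmtr23B and 6 with M12, and Rmtr23B shared 7 with M12. The 3 found in all lists were PDE_00326, a manganese superoxide dismutase that breaks down superoxide in mitochondria, and PDE_00327 and PDE_03437, which have no described product. Their levels lay at 7234, 4590 and 7621 TPM for PDE_00326, 11438, 5363 and 8574 TPM for PDE_00327, and 11368, 5420 and 7594 TPM for PDE_03437 in Dmtr23B, Rmtr23B and M12. All of them were lowest in Rmtr23B, as PDE_00021 was. The aspartic protease penicillopepsin (PDE_07927) was next to PDE_09832 in M12, with 697 TPM in Dmtr23B, 5013 in Rmtr23B and 11255 in M12. PDE_09236, next in Rmtr23B, held 23.9 TPM in Dmtr23B, 9747 in Rmtr23B and 2368 in M12. At the top in Dmtr23B were PDE_09166, with 12698, 2062 and 6522 TPM, and PDE_05534, with 10329, 126.5 and 198 TPM, in Dmtr23B, Rmtr23B and M12.

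The annotation of the members differs in kind. PDE_00021 matches Hyp1/RodA of Neosartorya fischeri with an E-value of 5.15e-32 and carries no Gene Ontology term. PDE_09832 matches an uncharacterised protein of Penicillium chrysogenum with an E-value of 7.43e-61 and carries 5 terms. These place it in the extracellular region and the fungal-type cell wall, name it as a structural part of that wall and, by 2 terms, assign it to spore formation. It was the 1 gene of the table with that function term, so no other gene serves as a comparison there.

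The fungal-type cell wall term was held by 4 genes, and the other 3 did not have the order of PDE_09832. Gel1 (PDE_04618), a glucanosyltransferase that elongates wall glucan in Aspergillus fumigatus, stood at 441 TPM in Dmtr23B, 253 in Rmtr23B and 514 in M12. PDE_07962, a membrane-anchored transferase of carbohydrate metabolism by its terms, stood at 173, 53.0 and 122 TPM, and PDE_05688, an enzyme of GPI-anchor synthesis, at 17.0, 11.9 and 7.74 TPM in Dmtr23B, Rmtr23B and M12. None of them was lower in Dmtr23B than in both others by the 2-fold rule, which 7.82% of 5756 genes were. Of the 5 genes with the sporulation term, 2 were, PDE_09832 and the scytalone dehydratase Arp1 (PDE_04496). The remaining 3 were the vacuolar serine protease PDE_09396 (319, 295 and 321 TPM in Dmtr23B, Rmtr23B and M12), the ubiquitin ligase PDE_08059 (226, 75.9 and 184 TPM) and PDE_07461, which stayed under 10 TPM.

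Among genes with at least 100 TPM in any of the 3 libraries, the ones most like each member were found by the distance between log2 (TPM + 1) differences of Dmtr23B and of Rmtr23B from M12. Such a distance rests on 3 libraries, so many genes can lie close. Nearest to PDE_09832 was PDE_03152, a gene with no described product, at a distance of 0.10, with 48.3 TPM in Dmtr23B, 3217 in Rmtr23B and 1552 in M12. PDE_10004, which resembles ferulate-5-hydroxylase, followed with 2.39, 209 and 90.8 TPM, then PDE_09234, which matches stcQ, with 41.5, 2053 and 1015 TPM, PDE_09237 with 4.77, 557 and 223 TPM, and PDE_09231 with 8.65, 848 and 286 TPM in Dmtr23B, Rmtr23B and M12. Closeness to PDE_09832 chose these genes, so each was lowest in Dmtr23B and over 2-fold higher in Rmtr23B than in M12. Of 1263 genes, 3 lay within a distance of 0.5 of PDE_09832. Of 5756 genes of 10 TPM or more, 86, 1.49%, were 2-fold lower in Dmtr23B than in both others and 2-fold higher in Rmtr23B than in M12. PDE_09832 was among them by the library total, just past the rule between Rmtr23B and M12.

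Nearest to PDE_00021 was Gel1 (PDE_04618), at a distance of 0.06. It was 1.74-fold higher in Dmtr23B than in Rmtr23B (1.60 to 1.90) and 1.17-fold lower in Dmtr23B than in M12 (1.09 to 1.25), and 2.03-fold lower in Rmtr23B than in M12 (1.87 to 2.21). The stress response RCI peptide gene PDE_09468 stood at 221, 126 and 242 TPM, PDE_04078 at 133, 72.3 and 145 TPM, the vesicle SNARE PDE_06713, a protein of membrane fusion, at 119, 66.4 and 128 TPM, and PDE_05808 at 123, 78.3 and 147 TPM in Dmtr23B, Rmtr23B and M12. Within a distance of 0.5 lay 90 of 1263 genes. Most genes differed little from M12, and PDE_00021 lies among them while PDE_09832 lies far out. A fixed distance thus holds more genes around PDE_00021 for that reason alone, and nothing more is read from the 2 counts. With a pseudocount of 10 in place of 1 TPM, 2 of the 5 genes named for PDE_09832 and 3 of the 5 named for PDE_00021 were again among the nearest.

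**Figure D4:**
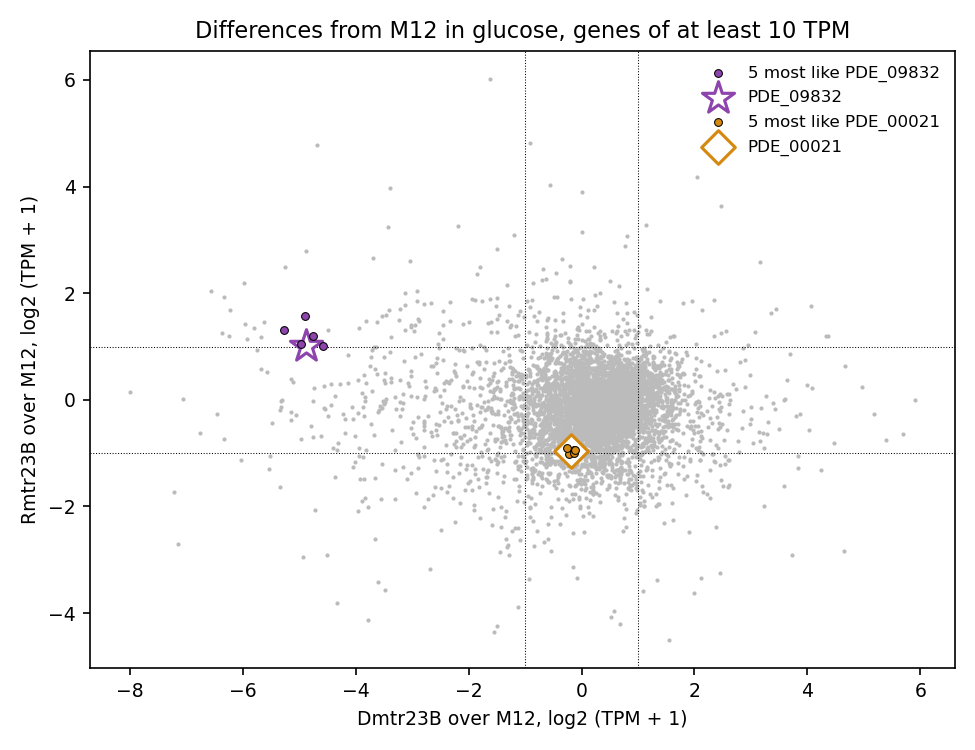
Difference of Dmtr23B from M12 (horizontal axis) and of Rmtr23B from M12 (vertical axis), both log2 of TPM + 1, for every gene that reached 10 TPM in glucose (grey). The star marks PDE_09832, at -4.88 and 1.01, and the diamond PDE_00021, at -0.19 and -0.96. Small filled points are the 5 genes most like each, and dotted lines mark 2-fold.

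Locus numbers stand in for gene order, since the files give no positions. Of the 10 neighbours of PDE_09832 with at least 10 TPM, 5 on each side, 1 was 2-fold lower in Dmtr23B than in M12 and none was higher, near the 10.2% of 5599 genes that were lower. Against Rmtr23B, 2 were lower and 1 was higher in Dmtr23B, beside 11.1% and 25.9% of 5620 genes. With the size factors of DESeq2, 3 were lower and 0 higher, beside 975 and 732 of 5528 genes. The gene lower than in M12 was PDE_09830, with no described product, which stood at 9.55 TPM in Dmtr23B, 261 in Rmtr23B and 131 in M12. It was 13.7-fold lower in Dmtr23B than in M12 (9.60 to 20.3) and 1.99-fold higher in Rmtr23B than in M12 (1.77 to 2.23). It thus had the order of PDE_09832, with a smaller difference from Dmtr23B and a like one between Rmtr23B and M12. Between them, PDE_09831 was highest in Dmtr23B, with 80.6, 39.6 and 46.4 TPM in Dmtr23B, Rmtr23B and M12, the difference between Rmtr23B and M12 lying within counting error. PDE_09837, a match to a DNA damage response protein, was the other gene lower than in Rmtr23B by the library total, at 8.65 TPM in Dmtr23B against 21.1 TPM in Rmtr23B.

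Around PDE_00021, 6 of the 10 neighbours were 2-fold higher in Dmtr23B than in M12 and none was lower, where 14.6% of 5599 genes were higher. With the size factors of DESeq2 the count was 2, where 459 of 5452 genes were higher. PDE_00012 and PDE_00013 differed most. PDE_00012 had 198 tags in Dmtr23B, 8 in Rmtr23B and 18 in M12, and was 11.03-fold higher in Dmtr23B than in M12 (6.80 to 19.0). PDE_00013 had 75, 5 and 15 tags. PDE_00011, at 381, 250 and 399 TPM in Dmtr23B, Rmtr23B and M12, was lowest in Rmtr23B as PDE_00021 was, and its values in Dmtr23B and M12 lay within counting error. The others ranged from 11.6 to 107 TPM in Dmtr23B, from 3.27 to 50.3 TPM in Rmtr23B and from 5.06 to 68.5 TPM in M12.

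The other genes of the wall and of conidiation were taken from 6 lists of words in the annotation, of which that of hydrophobins held PDE_00021 alone. Leaving out the members, the lists held 88 genes. Against M12, 8 were 2-fold higher and 15 lower in Dmtr23B of 58 with 10 TPM or more, beside 14.6% and 10.2% of all such genes. Against Rmtr23B, 13 were higher and 14 lower in Dmtr23B of 61, beside 25.9% and 11.1%. With the size factors of DESeq2 6 were higher and 18 lower, beside 732 and 975 of 5528 genes by the same factors. Against M12, 6 were higher and 8 lower in Rmtr23B of 57, beside 4.52% and 10.8%.

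Of 9 genes matched as structural wall proteins, 6 reached 10 TPM, PDE_09832 among them. The GPI-anchored serine-rich protein PDE_02721 had the reverse order, with 3638 TPM in Dmtr23B, 1210 in Rmtr23B and 1564 in M12, and was 2.33-fold higher in Dmtr23B than in M12 (2.25 to 2.40). With the size factors of DESeq2, 0 genes of the list were 2-fold higher in Dmtr23B than in M12, where 459 of 5452 genes were. The GPI-anchored wall protein PDE_06128 stood at 528, 314 and 320 TPM in Dmtr23B, Rmtr23B and M12. PDE_07019, a GPI-anchored serine-threonine-rich protein at low level, had 0, 101 and 22 tags. Against a floor of 3 tags it was at least 33.6-fold lower in Dmtr23B than in Rmtr23B and at least 7.32-fold lower than in M12. The list also took in PDE_07299 (83.2, 51.8 and 70.0 TPM) and PDE_00539 (35.2, 25.6 and 22.3 TPM), enzymes of mannose transfer and of GPI-anchor synthesis, which are not wall proteins. Over all 9, with these enzymes and the genes under 10 TPM included, the median log2 difference between Dmtr23B and M12 was 0.63, beside 0.21 over all 8902 genes. This median is the value of PDE_00539, so it does not describe wall proteins. With the size factors of DESeq2 the median of the list was 0.37.

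Of 34 genes of wall synthesis, 25 reached 10 TPM. Of these, 4 were higher and 1 lower in Dmtr23B than in M12, where 14.6% and 10.2% of all such genes were. Against Rmtr23B, 6 were higher and 1 lower in Dmtr23B, beside 25.9% and 11.1%. With the size factors of DESeq2, 2 were higher, where 732 of 5528 genes were. The median log2 difference between Dmtr23B and M12 was 0.57 over all 34, beside 0.21 over all genes. The wall organisation protein Ecm33 (PDE_06138) stood at 600, 481 and 411 TPM, the catalytic subunit of glucan synthase (PDE_08248), which makes the main wall glucan, at 188, 143 and 199 TPM, and chitin synthase CHS4 (PDE_02083) at 124, 116 and 107 TPM in Dmtr23B, Rmtr23B and M12. A protein O-mannosyltransferase (PDE_02346) was at 348, 146 and 179 TPM and the asparagine-glycan enzyme Alg11 (PDE_02585) at 164, 143 and 164 TPM. The 1 lower gene was chitin synthase CHS3 (PDE_08046), named after its values were seen, with 15.5 TPM in Dmtr23B, 115 in Rmtr23B and 98.5 in M12. It was 6.35-fold lower in Dmtr23B than in M12 (4.73 to 8.68).

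Among 33 genes of wall breakdown, 19 reached 10 TPM in Dmtr23B or M12, of which 2 were higher and 7 lower in Dmtr23B, beside 14.6% and 10.2% of all such genes. Of 21 that did so in Dmtr23B or Rmtr23B, 4 were higher and 5 lower in Dmtr23B, beside 25.9% and 11.1%. Of 21 that did so in Rmtr23B or M12, 2 were higher and 6 lower in Rmtr23B, beside 4.52% and 10.8%. Several of the abundant ones were lowest in Rmtr23B, as PDE_00021 was. By the library total the median gene also lay lower in Rmtr23B than in either other strain. The chitinase PDE_08122 stood at 453, 270 and 1146 TPM, the class V endochitinase PDE_01573 at 231, 122 and 466 TPM and the endo-1,3-beta-glucanase Engl1 (PDE_02862) at 123, 45.5 and 304.5 TPM in Dmtr23B, Rmtr23B and M12. Unlike PDE_00021, they were also 2.53-, 2.02- and 2.48-fold lower in Dmtr23B than in M12. The endochitinase PDE_04898 had the order of PDE_09832, with 49.5, 440 and 343 TPM, though only 1.28-fold apart between Rmtr23B and M12. Less abundant genes of the list had this order too. Among them was the class V chitinase PDE_01779, named after its values were seen. It stood at 0.90 TPM (3 tags), 385 and 54.8 TPM, and was 7.03-fold higher in Rmtr23B than in M12. An endo-1,3(4)-beta-glucanase, PDE_07635, stayed within 2-fold at 175, 128 and 157 TPM. The list's name search also took in PDE_04327, a ribosomal protein L10 at 534, 434 and 396 TPM, and several endoglucanases that act on cellulose.

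Genes of conidiation and conidial pigment included many with low levels in Dmtr23B, as PDE_09832 had and PDE_00021 had not. Of 12 genes matched to conidiation other than the members, 9 reached 10 TPM. Of these, 5 were lower and 1 was higher in Dmtr23B than in M12, beside 10.2% and 14.6% of all such genes. Against Rmtr23B, 5 were lower and 2 higher in Dmtr23B, beside 11.1% and 25.9%. Besides BrlA, the lower genes were pigment proteins (Ayg1, Arp1, PDE_09492 and PDE_09453), which the pigment list below counts again, so both lists overlap. BrlA (PDE_00087) had 18 tags in Dmtr23B, 300 in Rmtr23B and 304 in M12. Ayg1 (PDE_09452), an enzyme of spore pigment, had 109, 2050 and 2527 tags, and Arp1 (PDE_04496), a dehydratase of melanin synthesis, had 40, 862 and 625 tags. In Rmtr23B over M12 the ratios of these 3 were 0.99, 0.81 and 1.38, against 2.01 for PDE_09832, which lies at the edge of the 2-fold rule. The 1 gene higher than in M12 was the septin PDE_06826, a protein of septum formation, with 144, 68.5 and 56.3 TPM in Dmtr23B, Rmtr23B and M12. LaeA (PDE_00584) stood at 22.1, 34.8 and 21.1 TPM.

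Of 7 genes matched to conidial pigment, 6 were lower and none was higher in Dmtr23B than in M12, beside 10.2% and 14.6% of all such genes, and the same counts held against Rmtr23B, beside 11.1% and 25.9%. The median log2 difference over the 7 was -3.85 against M12 and -4.19 against Rmtr23B, beside 0.21 and 0.35 over all genes. Besides Ayg1 and Arp1 these were the oxidases PDE_09492 (9.85, 149 and 112 TPM) and PDE_09453 (14.3, 61.9 and 52.4 TPM), and PDE_09236 (23.9, 9747 and 2368 TPM) and PDE_09239 (14.9, 3159 and 1319 TPM). The last pair, matched by terms for melanin metabolism and for a naphthalene reductase, have locus numbers close to those of PDE_09237 and PDE_09234 above, and the match does not show that they act in spore pigment. The seventh, PDE_04937, is a dynactin subunit of the cytoskeleton.

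Among the genes matched to conidiation or conidial pigment, BrlA and the 4 proteins named for conidial pigment were low in Dmtr23B with PDE_09832. The septin, PDE_08059, PDE_09396 and LaeA were not lower than in M12 by the 2-fold rule. These last were matched by words in the annotation, which does not show that they mark conidiating cells. The 4 proteins named for conidial pigment summed to 68.6 TPM in Dmtr23B, 1077 TPM in Rmtr23B and 1103 TPM in M12, and the 15 genes of both lists other than the members to 850, 14582 and 5486 TPM. Without PDE_09236 and PDE_09239 the remaining 13 summed to 811, 1677 and 1799 TPM in Dmtr23B, Rmtr23B and M12. Of the 811 TPM in Dmtr23B, PDE_09396, PDE_08059 and the septin held 319, 226 and 144 TPM. WetA (PDE_08333), a regulator of spore maturation in Aspergillus, had 8, 5 and 3 tags, and VeA (PDE_00650), a regulator of development, had 2, 4 and 2, too few to compare. The part of conidiating cells in the level of PDE_09832 was not tested. PDE_00021, a spore hydrophobin by its match, stood 1.14-fold below M12 in the same Dmtr23B library in which BrlA was 16.8-fold below M12 (10.5 to 28.8).

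**Figure D5:**
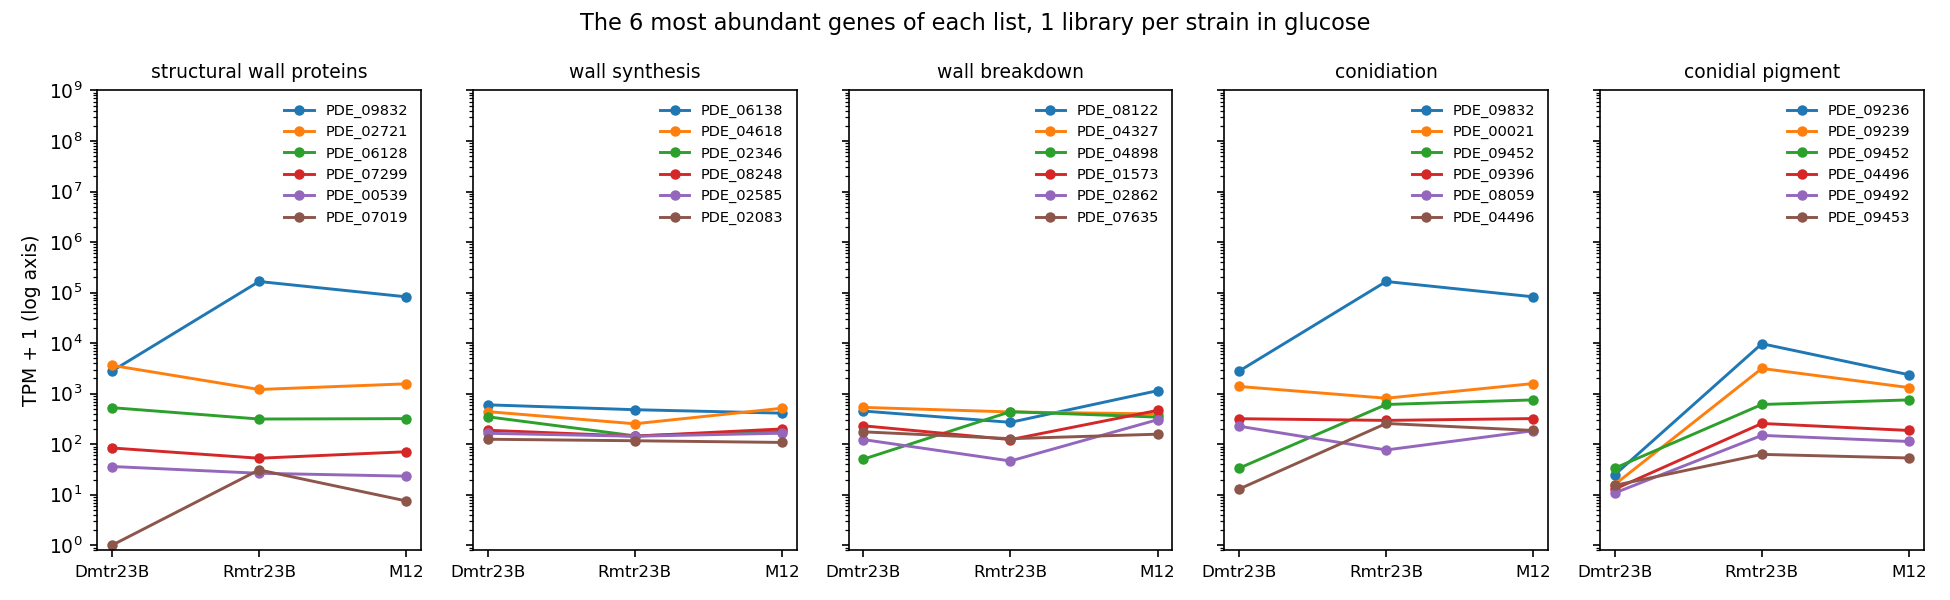
TPM + 1 (log axis) in the glucose libraries of Dmtr23B, Rmtr23B and M12 for the 6 genes of highest summed TPM in 5 lists, 1 line per gene, each point being 1 library. PDE_09832 stands above all other listed genes in Rmtr23B and M12. The 6 plotted genes of the conidial pigment list, unlike PDE_00021, are low in Dmtr23B. Among them, PDE_09236 and PDE_09239 are not shown to act in spore pigment.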

How the data were processed

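Tag profiling libraries of 3 strains in glucose were analysed, 1 library per strain. Polyadenylated RNA was bound to oligo(dT) and its cDNA cut with NlaIII, per the labels' protocols, and tags of 17 bp beyond the CATG site were released with MmeI and sequenced in 35-bp reads. Deposited tag counts are not normalised, per the file headers, which give the library total (3351279 to 3359728 tags). Deposited TPM values are counts scaled to that total, without gene length: recomputed values differed by at most 0.005 TPM. The sources used here give no mapper, build, annotation version, strand use or rule for tags shared between genes, so paralogs and overlapping genes are uncertain. The cellulose and wheat bran columns did not follow the identifiers (Spearman correlation over 8902 rows between -0.01 and 0.002 within a strain) and were not used by gene. The RefSeq table of strain HP7-1 held 0 of the 8902 identifiers.

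Members, lists and comparisons were chosen with earlier results of these data known. Named genes were the members, 5 neighbours by locus number on each side with at least 10 TPM in any library, the 10 most abundant genes of each library, the 5 genes most like each member among those of at least 100 TPM, and up to 6 genes of highest TPM in each list. Other named genes were chosen after their values were seen, CHS3, LaeA, WetA, VeA, BrlA and the septin among them. Intervals are exact (scipy 1.17.1) or, for ratios of ratios, Woolf intervals. A minimum of 10 TPM is 33.5 to 33.6 tags, and 3 tags, the floor for a count of 0, are 0.893 to 0.895 TPM. Scaling factors came from edgeR 4.0.16 (TMM) and DESeq2 1.42.0 in R 4.3.3, and neither tool was used for a test. The 2-fold rule and the ratio intervals were tested on simulated counts. These held counting error only and planted changes larger than 2-fold. They say nothing about culture-to-culture spread or about calls near 2-fold.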

Additional observations from a re-analysis of the deposited data

How the results depend on the processing

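The log2 ratios of both members kept their sign under the scalings tried. The balance of genes 2-fold apart between Dmtr23B and each other strain turned, with more genes higher by the library total and more lower by the DESeq2 size factors. No paired analysis was possible because each strain has 1 library and no replicate numbers. For Dmtr23B over Rmtr23B, Dmtr23B over M12 and Rmtr23B over M12 in that order, the log2 ratio of PDE_09832 was -6.23, -5.07 and 1.16 when scaled to assigned tags other than its own, -6.31, -5.15 and 1.15 by TMM (edgeR), and -6.33, -5.16 and 1.17 by the DESeq2 size factors. That of PDE_00021 was 0.44, -0.37 and -0.81, then 0.36, -0.46 and -0.82, then 0.34, -0.47 and -0.80. By assigned tags, PDE_09832 gave -5.80 for Dmtr23B over Rmtr23B and 0.94 for Rmtr23B over M12, and PDE_00021 gave 0.86 and -1.03. Genes 2-fold higher in Dmtr23B than in Rmtr23B numbered 858 without PDE_09832 in the total, 754 by TMM, 732 by DESeq2 and 792 with a pseudocount of 10 TPM, and those lower 954 by TMM, 975 by DESeq2 and 956 with no minimum. Genes higher in Dmtr23B than in M12 numbered 464 by TMM, 459 by DESeq2 and 395 with a pseudocount of 10, and those lower 896 with no minimum. Between Rmtr23B and M12, 126 were higher and 276 lower with a pseudocount of 10, and 441 and 895 with no minimum. List genes higher in Dmtr23B than in Rmtr23B numbered 6 by DESeq2, against 13. Of the 5 genes most like PDE_09832 and PDE_00021, 2 and 3 were shared with a pseudocount of 10. With 1 library per strain, culture-to-culture spread is unknown, and ratios near 2-fold cannot be placed on either side of it.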

Other observations

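In cellulose and wheat bran, where rows cannot be tied to genes, 1 row of 9184 exceeded 10000 TPM in each library, and it was the same row in all 3. It held 14498 TPM in Dmtr23B, 45544 TPM in Rmtr23B and 39691 TPM in M12. The rows next in abundance held 8994, 8510 and 7507 TPM. As with PDE_09832 in glucose, the leading row was lowest in Dmtr23B, but whether it is the same gene cannot be told from the table.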
